A study of Mus musculus with 2 samples.

Results

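The receptors that bind fibroblast growth factors (FGFs) and the proteins that sit next to them at the membrane were measured in Cajal-Retzius (CR) cells, the early-born, Reelin-producing neurons of the hippocampal fissure. The 9 genes, of 32285 counted, were taken by symbol: the receptors *Fgfr1*, *Fgfr2*, *Fgfr3* and *Fgfrl1*, the adaptors *Frs2* and *Frs3*, and the FLRT proteins *Flrt1*, *Flrt2* and *Flrt3*. They were measured in the barcodes with at least 2000 unique molecular identifiers (UMIs, 1 for every RNA molecule that was captured) and at least 5 UMIs of *Reln*, which encodes Reelin. These came to 1003 control and 390 knockout CR cells, 1393 in all, and the 2 libraries shared 0 cell barcodes.

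The study deleted *Cic*, which encodes the transcriptional repressor capicua, from CR cells, and single-cell RNA-sequencing was done at P14. The control library was made from *ΔNp73-Cre; Cic flox/+; tdT* mice, 3 male and 1 female, and the knockout library from *ΔNp73-Cre; Cic flox/flox; tdT* mice, 2 male and 2 female. Hippocampal cells that were positive for tdTomato and negative for DAPI were sorted. Both genotypes therefore carried the Cre, which is driven from the *ΔNp73* promoter and starts in CR progenitors, the Cre-dependent tdT reporter and at least 1 floxed *Cic* allele, and the control was a conditional heterozygote. The 4 mice of a genotype were pooled before capture, so each genotype was 1 library and no difference between them had a replicate check. The study describes the mice as littermates; the mix of sexes and the capture of each library cannot be told apart from genotype. The study states that the deletion did not reach every CR cell.

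The cells held a median of 6224 UMIs in the control and 6664 in the knockout. All 8 CR markers (*Reln*, *Trp73*, *Lhx1*, *Lhx5*, *Calb2*, *Ebf3*, *Ndnf* and *Cacna2d2*) were present in both libraries, *Reln* by the choice of cells. Levels are given as CPM, counts per 1000000 UMIs outside mitochondrial and ribosomal protein genes. The *Cic* level was 58.9 CPM in control and 51.3 CPM in knockout cells, a ratio of 0.871 (95% interval, 0.714 to 1.06). Whether the counted molecules came from the floxed part of the gene is not given in the sources used here. *Etv4* and *Etv5*, genes that capicua is known to repress, were at 1.97 and 15.0 CPM in control cells, and knockout cells had 70.9 CPM of each. At least 1 UMI of *Etv4* or *Etv5* was found in 87 control cells (8.67%) and in 162 knockout cells (41.5%). Intervals are exact and cover counting error only, not the spread between mice.

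FGF receptors are tyrosine kinases that pair when an FGF and heparan sulfate bind outside the cell, and they then phosphorylate the docking proteins FRS2 and FRS3. Through GRB2 and SOS the docking proteins pass the signal to the RAS/MAPK cascade, and through GAB1 to PI3K and AKT. RAS/MAPK signaling inactivates capicua, so *Etv4* and *Etv5* are common readouts of FGF signaling. FLRT proteins are leucine-rich repeat adhesion proteins that bind UNC5 and latrophilin receptors on other cells and can also bind FGF receptors.

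Among the receptors, *Fgfr2* was the one detected in most CR cells of both genotypes, and *Fgfr1* was the only one past the 1.5-fold size used here between the libraries among the 7 of the 9 genes with enough UMIs for a ratio. *Fgfr1* was at 6.66 CPM (4.84 to 8.95) in control cells and at 29.6 CPM (23.6 to 36.8) in knockout cells, 4.45-fold higher (3.05 to 6.57). Within the knockout it was 3.02-fold higher (1.85 to 5.09) in cells with an *Etv4* or *Etv5* UMI than in those without. The levels of *Fgfr2*, *Frs2*, *Flrt1* and *Flrt3* differed between the libraries by less than 1.5-fold, with intervals that all lay inside that size.

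**Figure D1:**
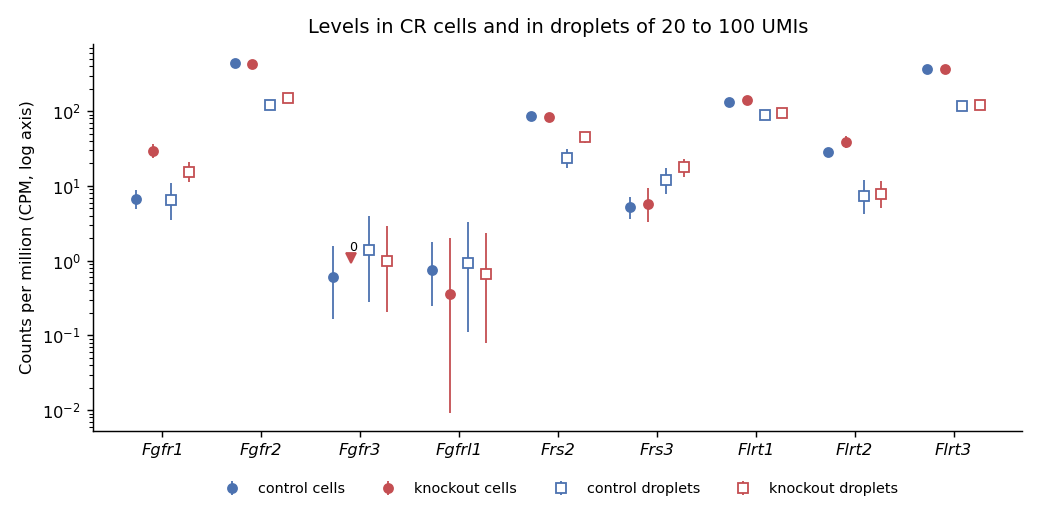
CPM (log axis) of the 9 genes in CR cells (filled circles) and in droplets of 20 to 100 UMIs (open squares) of the control (blue) and knockout (red) library, with exact 95% intervals. *Fgfr1* stands at 6.66 CPM in control cells and 29.6 CPM in knockout cells, whereas *Fgfr2*, *Frs2*, *Flrt1* and *Flrt3* lie nearly level; *Fgfr3* had 0 UMIs in knockout cells, and the triangle marks the 1.08 CPM that a count of 0 allows.

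*Fgfr1* (chr8:25513654-25575718, plus strand, GRCm38) encodes a receptor that both neurons and glia use in the brain. In the control, its 44 UMIs came from 29 of 1003 cells (2.89%), of which 27 held 1 UMI, 1 held 2 and 1 held 15. In the knockout, its 82 UMIs came from 61 of 390 cells (15.6%), of which 45 held 1 UMI, 12 held 2 and 4 held 3 or 4. The knockout level was thus spread over many cells, whereas 34.1% of the control UMIs lay in 1 cell. After every cell was thinned to 2000 UMIs, the shares were 0.997% (0.479 to 1.83) and 4.87% (2.96 to 7.50).

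The control cell with 15 *Fgfr1* UMIs had 7337 UMIs in all, and 319 control cells were deeper. It held UMIs of 7 of the 8 CR markers, 54 of them from *Reln* and 32 from *Ndnf*, and of 0 of the 7 astrocyte markers. *Reln* was part of the rule that chose the cells, so its presence was given in advance. It had 0 *Etv4* and *Etv5* UMIs, 3 of *Fgfr2* and 10 of *Flrt3*. Without it, the control level was 4.40 CPM and the knockout ratio was 6.74 (4.37 to 10.7), so this cell drew the ratio between the libraries down. No knockout cell held more than 4 *Fgfr1* UMIs.

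Of the 9 genes, 7 had at least 50 UMIs over both libraries, the minimum for a ratio, and 1 of these 7, *Fgfr1*, was past 1.5-fold. *Fgfr1* had 82 UMIs in the knockout and 44 in the control, the latter alone under the minimum. Its place in this count is therefore not fully independent of its ratio. Over all genes with 50 UMIs, 7.34% were past 1.5-fold, 822 of 11194. A count of 1 in 7 is near that background, so the group as a whole did not stand apart. The *Fgfr1* ratio itself was exceeded by 14 of the 11194 genes, and without the highest cell by 9. That control cell was chosen for its *Fgfr1* UMIs, so leaving it out could only raise the *Fgfr1* ratio. The second rank is therefore not independent of that choice. The median ratio of the 7 genes was 1.06, against 1.01 for all genes.

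Free RNA was also richer in *Fgfr1* in the knockout library. Droplets of 20 to 100 UMIs, which hold no whole cell, carried *Fgfr1* at 6.43 CPM (3.51 to 10.8) in the control library and at 15.5 CPM (11.4 to 20.6) in that of the knockout, a ratio of 2.41 (1.30 to 4.73). These were 29040 droplets with a median of 89 UMIs and 75813 with a median of 44. In control cells the level was 1.04 times that of the droplets (0.558 to 2.05), and without the cell with 15 UMIs it was 4.40 CPM. Apart from that cell, the *Fgfr1* level of control cells was not above that of the droplets. Control cells held a median of 6224 UMIs, far more than a droplet. An equal level therefore does not give the source of a cell's UMIs, which was not tested. In knockout cells *Fgfr1* was 1.92 times the droplet level (1.32 to 2.81). With 5% of each cell's UMIs subtracted as free RNA, *Fgfr1* was still past 1.5-fold; the part of free RNA in the rest was not tested.

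Knockout cells differed among themselves in *Fgfr1* by their *Etv4* and *Etv5* UMIs. Free RNA of the knockout library also held *Etv4* and *Etv5*, and its part in this split was not tested. In the 162 knockout cells with at least 1 such UMI, *Fgfr1* had 58 UMIs in 42 cells, 47.2 CPM (35.9 to 61.0). In the 228 knockout cells with none, it had 24 UMIs in 19 cells, 15.6 CPM (10.0 to 23.2). The intervals did not overlap. Without the highest of these cells, which held 4 *Fgfr1* UMIs and an *Etv4* or *Etv5* UMI, the ratio was 2.83 (1.72 to 4.79). The median depths were 7266 UMIs with and 6210 without, and a deeper cell has more chance of showing an *Etv* UMI. When the cells were split on *Etv4* and *Etv5* after thinning to 2000 UMIs, *Fgfr1* was at 64.8 CPM (44.6 to 90.9) in the 75 cells that kept one and at 21.7 CPM (16.1 to 28.7) in the other 315. *Fgfr1* itself was counted at full depth there. With its counts thinned too, it had 8 UMIs with and 13 without. That ratio was 2.58 (0.928 to 6.72), with an interval that covers 1.

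With more *Etv4* and *Etv5* UMIs per knockout cell, the *Fgfr1* level was higher up to a count of 2. It was 31.5 CPM (17.7 to 52.0) in the 67 cells with 1 UMI, 59.2 CPM (33.1 to 97.6) in the 36 cells with 2, and 56.1 CPM (37.3 to 81.0) in the 59 cells with 3 or more. The last intervals overlapped widely, so no order among cells with an *Etv* UMI was resolved. Cells with *Etv4* alone stood at 44.2 CPM (25.3 to 71.8) and with *Etv5* alone at 46.4 CPM (27.0 to 74.3), and the interval of the 60 cells with both (32.3 to 73.7) covered these values. These finer splits, and the split by *Fgf1*, were chosen after the values were seen.

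**Figure D2:**
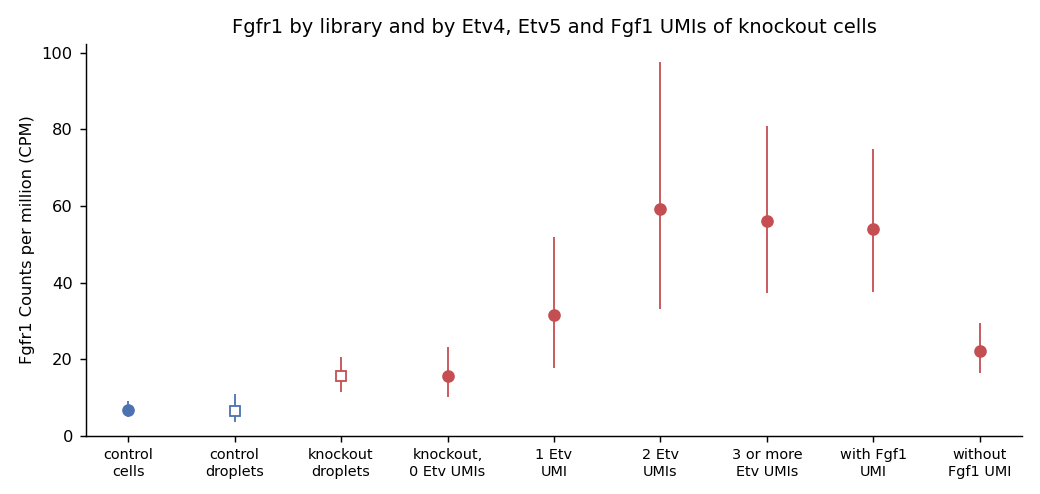
*Fgfr1* CPM (linear axis from 0) in control cells, in droplets of 20 to 100 UMIs of each library (open squares), and in knockout cells grouped by their number of *Etv4* and *Etv5* UMIs and by *Fgf1*, with exact 95% intervals. Knockout cells with 0 *Etv* UMIs (15.6 CPM) stand near the knockout droplets (15.5 CPM), and those with 2 (59.2 CPM) or with 3 or more (56.1 CPM) stand highest.

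The same split in the control left too few *Fgfr1* UMIs for a ratio. Its level was 4.49 CPM (3 UMIs) in the 87 control cells with an *Etv4* or *Etv5* UMI and 6.91 CPM (41 UMIs) in the 916 without. Knockout cells without an *Etv* UMI were 2.34-fold above the control in *Fgfr1* (1.36 to 3.94), and 3.55-fold (1.98 to 6.31) when the control cell with 15 UMIs was left out. Their 15.6 CPM equaled the knockout droplet level of 15.5 CPM within counting error, but equal levels do not give the source of these UMIs. Knockout cells with an *Etv* UMI were 7.08-fold above the control (4.71 to 10.7), and 10.7-fold (6.76 to 17.4) without that cell.

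Astrocytes express *Fgfr1* to *Fgfr3*, so their markers are given beside this result. The 7 astrocyte markers summed to 133 CPM in control cells and 119 CPM in knockout cells, and 231 of the 880 control UMIs lay in 1 cell. By share of cells the order was the opposite, with a UMI of the list in 39.3% of control and 43.1% of knockout cells. *Apoe* was in 3.99% and 11.3%, *Gfap* in 0.199% and 1.28%, and *Slc1a3* in 1.20% and 2.05%. *Slc1a2* was in 35.5% and 32.8%, and *Aldoc*, *Aqp4* and *Gja1* were also in a smaller share of knockout cells. In the knockout, *Aqp4* and *Gja1* were at 0, and *Slc1a2* (83.2 CPM) and *Apoe* (29.6 CPM) made up most of the sum. In the 61 knockout cells with an *Fgfr1* UMI the markers summed to 146 CPM with 4 of 7 present, against 113 CPM with 5 of 7 present in the other 329. *Aqp4* and *Gja1* were at 0 in both, and *Aldoc* was at 0 against 0.872 CPM. *Apoe* was at 48.7 against 25.7 CPM, *Gfap* at 6.35 against 1.31 CPM, *Slc1a3* at 4.23 against 2.62 CPM and *Slc1a2* at 86.7 against 82.4 CPM. Of these cells, 57.4% against 40.4% held a UMI of the list. Shares of cells with marker UMIs are at full depth, where a deeper cell has more chance of showing one. The part of depth in them was not tested. By *Etv* UMI the order of the sums was the opposite, at 107 CPM with and 127 CPM without. A UMI of the list was in 45.1% of cells with and 41.7% of cells without an *Etv* UMI. *Apoe* was at 30.9 against 28.6 CPM and *Slc1a3* at 3.26 against 2.60 CPM. Lower in cells with an *Etv* UMI were *Slc1a2*, at 72.5 against 91.7 CPM, *Gfap*, at 0.814 against 3.25 CPM, and *Aldoc*, at 0 against 1.30 CPM. The markers of 3 other lists were also higher in cells with an *Fgfr1* UMI. Those of oligodendrocyte precursors summed to 93.1 against 75.4 CPM, mostly *Cspg4*. In the cells with *Fgfr1*, *Olig1* had 1 UMI, against 0 in the others, and *Pdgfra*, *Olig2* and *Sox10* were at 0. Those of mural cells summed to 93.1 against 72.8 CPM, mostly *Rgs5*, with *Pdgfrb* and *Vtn* at 0 in the cells with *Fgfr1*. Those of fibroblasts summed to 21.2 against 15.7 CPM, all from *Col1a1*, with *Col1a2* and *Dcn* at 0. The GABAergic list held 1 UMI in each set of cells, and the lists of oligodendrocytes, microglia, endothelial, ependymal or choroid and granule or pyramidal cells were lower in cells with *Fgfr1*. By *Etv* UMI, the precursor list was at 89.5 CPM with and 69.6 CPM without, the fibroblast list at 23.6 and 11.1 CPM, and the mural list at 76.5 and 76.1 CPM. Between the libraries, knockout cells had 16.6 CPM of the fibroblast list against 8.79 CPM in control cells, 78.5 against 60.7 CPM of the precursor list and 76.3 against 81.9 CPM of the mural list. The part of other cell types in the *Fgfr1* result was not tested. When every cell with any astrocyte marker UMI was left out, 222 knockout and 609 control cells remained. The *Fgfr1* ratio between the libraries was then 2.51 (1.53 to 4.14), and 4.39 (2.47 to 8.03) when the control cell with 15 UMIs, which has no astrocyte UMI, was left out as well. The ratio by *Etv* UMI within these knockout cells was 3.04 (1.43 to 6.87), from 35 *Fgfr1* UMIs.

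*Fgfr2* (chr7:130162451-133123350, minus strand) was detected in 891 control cells (88.8%) and 362 knockout cells (92.8%). Control cells had 445 CPM (429 to 461) and knockout cells 424 CPM (399.8 to 449), a ratio of 0.953 (0.890 to 1.02). Its level in cells was 3.67 times that in droplets in the control and 2.84 times in the knockout. Of the UMIs of *Fgfr1*, *Fgfr2* and *Fgfr3* together, *Fgfr2* made up 98.4% (97.9 to 98.8) in control cells and 93.5% (91.9 to 94.8) in knockout cells, and *Fgfr1* 1.48% and 6.54%. UMIs are counted at the 3′ end and are not divided by length, so these shares are of captured molecules. The annotation gives *Fgfr2* a span of 2960900 bases that overlaps 48 other counted genes, 1 of them, *Ctbp2*, in exons on the same strand, and how reads in shared parts were assigned is not stated.

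*Fgfr2* differed by less than 1.5-fold by *Etv* UMI in both libraries. It was at 411 CPM in knockout cells with and 434 CPM in those without an *Etv* UMI, a ratio of 0.948 (0.842 to 1.07). In the control the ratio was 0.879 (0.771 to 0.997), an interval just below 1. In knockout cells with 0 *Etv* UMIs its level was 434 CPM (402 to 468), with 1 it was 492 CPM (431 to 559), with 2 it was 351 CPM (282 to 432) and with 3 or more 364 CPM (313 to 421). The cells with 1 *Etv* UMI and those with 3 or more thus had intervals that did not overlap, with the lower level in the latter.

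*Fgfr3* (chr5:33721674-33737068, plus strand), a receptor typical of astrocytes, had 4 UMIs in 4 control cells and 0 in the knockout. A count of 0 in the knockout allows a level of up to 1.08 CPM, above the 0.606 CPM of the control, so no difference was detectable at this depth. *Fgfrl1* (chr5:108692382-108706924, plus strand) encodes a related receptor without a kinase domain. It had 5 UMIs in the control and 1 in the knockout. The levels of both genes in cells were not above those in droplets, and whether their few UMIs came from free RNA was not tested.

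The adaptor *Frs2* (chr10:117069427-117148534, minus strand), the main docking protein of FGF receptors, was nearly level between the libraries. It was at 85.0 CPM (78.1 to 92.3) over all control cells and at 84.2 CPM (73.8 to 95.8) over all knockout cells, a ratio of 0.991 (0.847 to 1.16), with a UMI in 405 and 166 of them. Without the highest cell, of 5 UMIs, the ratio was 0.971. By *Etv* UMI its ratio was 1.12 (0.858 to 1.46) in the knockout and 0.908 (0.669 to 1.21) in the control. Free RNA held *Frs2* at 23.4 CPM (control) and 44.8 CPM (knockout), below the cells of each library.

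*Frs3* (chr17:47689030-47704286, plus strand), the other docking protein, was rare. Control cells had 34 UMIs (5.15 CPM) and knockout cells 16 UMIs (5.78 CPM), a ratio of 1.12 (0.579 to 2.09). Droplets carried it at 11.9 and 17.8 CPM, above the cells of both libraries. These levels do not give the part of free RNA in its cell UMIs, which was not tested. *Frs3* overlaps exons of 2 other counted genes, *Tomm6os* on its own strand and *Frs3os* on the opposite one. These had at most 6 UMIs each. *Frs2* made up 94.3% of the UMIs of both adaptors in the control and 93.6% in the knockout.

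*Flrt3* (chr2:140650914-140671469, minus strand) was the most detected FLRT gene. Its level was 372 CPM (358 to 387) in control cells and 364 CPM (342 to 388) in knockout cells, a ratio of 0.979 (0.909 to 1.05), with a UMI in 78.8% and 81.0% of cells. *Flrt1* (chr19:7092001-7105729, minus strand) was at 134 CPM (125 to 143) and 142 CPM (128 to 156), a ratio of 1.06 (0.936 to 1.19). Neither of these adhesion genes differed between the libraries beyond counting error. *Flrt3* lies in an intron of *Macrod2* and *Flrt1* in one of *Macrod1*, both on the opposite strand and both well expressed, with 4359 and 1683 control UMIs. Whether strand was used in counting is not stated, so a part of their UMIs could belong to the host genes. *Flrt1* stood only 1.51 times above droplets in the control and 1.52 times in the knockout, against 3.19 and 3.01 times for *Flrt3*.

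*Flrt2* (chr12:95692226-95785215, plus strand), known as a repulsive guidance cue for neurons that carry UNC5 receptors, came nearest to the 1.5-fold size after *Fgfr1*. It was at 28.2 CPM (24.3 to 32.5) over all control cells and at 39.0 CPM (32.0 to 47.1) over all knockout cells, with a UMI in 132 (13.2%) and 70 (17.9%) of them. The ratio was 1.39 (1.08 to 1.77), above 1 but below 1.5-fold, and 789 of 11194 genes had a higher one. Its highest cell was in the control, with 9 UMIs, and without it the ratio was 1.45 (1.13 to 1.86). With every cell thinned to 2000 UMIs, *Flrt2* reached 1.5-fold. Thinned to 2000 UMIs, 4.79% (3.55 to 6.30) of control and 7.44% (5.04 to 10.5) of knockout cells had a UMI, and these intervals overlapped. Droplets carried *Flrt2* at 7.34 and 7.90 CPM, so free RNA of this gene was level between the libraries.

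*Flrt2* did not differ by *Etv* UMI beyond counting error in the knockout. It was at 36.6 CPM in knockout cells with and 41.0 CPM in those without an *Etv* UMI, a ratio of 0.894 (0.596 to 1.33). The ratio of *Flrt1* was 0.900 (0.732 to 1.11) and that of *Flrt3* 0.966 (0.851 to 1.10). By this split, 1 of the 6 genes with enough UMIs was past 1.5-fold, *Fgfr1*, where 9.70% of 7865 genes were past it. *Fgfr1* had 58 UMIs in cells with an *Etv* UMI and 24 in the others. Its place in this count is therefore not independent of its ratio. The *Fgfr1* ratio was exceeded by 21 of these genes, among them *Etv4* and *Etv5*, which define the split. In the control, 0 of 5 genes were past 1.5-fold by the same split, where 16.2% of 10356 genes were.

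**Figure D3:**
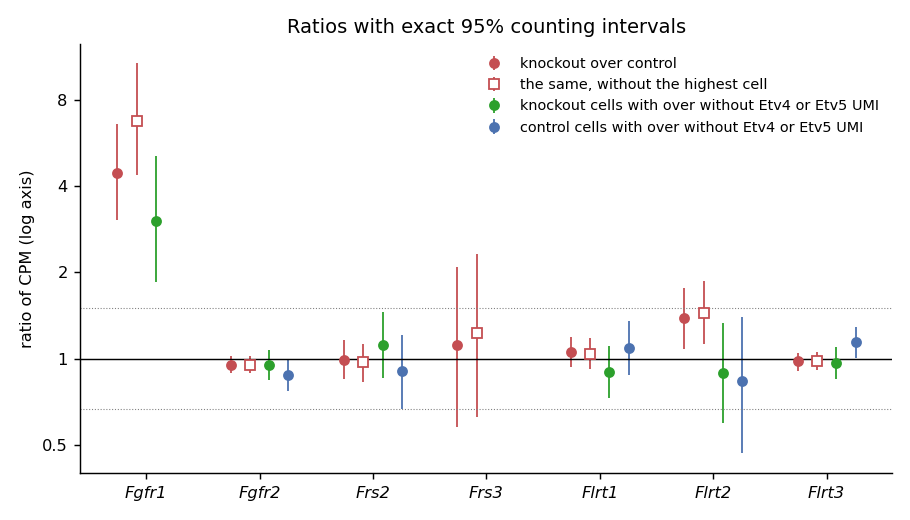
Ratios of CPM (log axis) for the 7 genes with at least 50 UMIs: knockout over control (red circles), the same without the highest cell (red open squares), and cells with over cells without an *Etv4* or *Etv5* UMI in the knockout (green) and the control (blue), with exact 95% intervals; dotted lines mark 1.5-fold. *Fgfr1* lies above 1.5-fold in each of its 3 ratios (4.45, 6.74 and 3.02), and *Flrt2* between 1 and 1.5-fold for the libraries (1.39).

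Other genes of the pathway were read from lists of whole families and complexes. Of 18 FGF ligands, 3 had at least 50 UMIs between the libraries, and 2 of them were past 1.5-fold, both higher. Over all genes with 50 UMIs, 7.34% were past 1.5-fold, and 4.38% were past it and higher. *Fgf1* reached the minimum through the knockout, with 122 UMIs there and 19 in the control. Its place in this count is therefore not independent of its ratio. *Fgf1*, a ligand that binds all FGF receptors, was at 2.88 CPM in control cells and 44.1 CPM in knockout cells, a ratio of 15.3 (9.41 to 26.3). *Fgf20*, a ligand of the FGF9 subfamily, was at 6.51 and 13.7 CPM, a ratio of 2.11 (1.33 to 3.34). Droplets carried *Fgf20* at 13.8 CPM in the control library and 9.54 CPM in that of the knockout, above and below the cells, and 15 of its 38 knockout UMIs lay in the 41 cells with a high share of respiratory transcripts described further on. None of 2 co-receptors, 9 signaling proteins next to the receptor, 12 genes of the PI3K and AKT arm and 5 FLRT-binding receptors with enough UMIs was past 1.5-fold in this comparison. Their median ratios were 1.00, 1.08, 0.957 and 0.998. *Fgfr4*, the remaining kinase receptor, had 3 and 9 UMIs, too few for a ratio.

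Knockout cells with an *Fgf1* UMI also had more *Fgfr1*. *Fgfr1* was at 53.9 CPM (37.6 to 75.0) in the 83 knockout cells with an *Fgf1* UMI and at 22.2 CPM (16.3 to 29.5) in the 307 without. It was within 36.8 to 79.0 CPM (29 UMIs) in the 65 cells with UMIs of both *Fgf1* and an *Etv* gene, and at 12.7 CPM (7.53 to 20.1) in the 210 with neither. The 97 cells with an *Etv* UMI alone stood at 41.4 CPM (27.7 to 59.4) and the 18 with *Fgf1* alone at 49.3 CPM (18.1 to 107), and both intervals overlapped that of the cells with both. *Fgfr2* stood at 413 CPM in the cells with both and 436 CPM in those with neither. Median depths were 7455 UMIs in cells with both and 6158 in cells with neither, and the part of depth in this difference was not tested.

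Motifs were looked for in RefSeq promoters (GRCm38.p6, 250 bases before to 50 after a start), which were matched for 7 of the 9 genes, *Fgfr1* and *Flrt1* not being among them. The octamers bound by capicua, TGAATGAA, TGAATGGA, TCAATGAA and TCAATGGA, were searched on both strands. They were found in 0 promoters of the 7 genes, and 3.84% of all 32851 promoters of this length hold at least 1. The same search found 0 in the matched promoters of *Etv5*, a gene that capicua is known to repress. The search therefore says only that these letters are not in these windows.

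CR cells with a high share of respiratory-chain transcripts had lower levels of several of the 9 genes. Cells in which 98 nuclear genes of oxidative phosphorylation held at least 1.5% of UMIs numbered 102 control and 41 knockout cells. They are a range of a share and not a cell type, with 52 and 25 cells within 1.25% to 1.75%, and they were deeper, with medians of 13182 and 13104 UMIs against 6065 and 6429. *Fgfr2* was at 206 CPM (179 to 235) in these control cells and 491 CPM in the others, a ratio of 0.419 (0.364 to 0.481). In the knockout it was at 231 and 463 CPM, a ratio of 0.499 (0.406 to 0.609). The CPM of this receptor was thus lower by a similar factor in both libraries. CPM is a share of UMIs, and in these deeper cells a lower share need not mean fewer molecules per cell.

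*Flrt2* was at 14.1 against 30.9 CPM in the control, a ratio of 0.456 (0.250 to 0.774), and at 23.3 against 42.3 CPM in the knockout, 0.552 (0.267 to 1.03). *Frs2* had ratios of 0.693 (0.528 to 0.898) and 0.585 (0.370 to 0.889). *Fgfr1* in the knockout was at 10.6 CPM (5 UMIs) against 33.6 CPM, a ratio of 0.316 (0.0999 to 0.770). *Flrt1* and *Flrt3* differed less. *Flrt1* had ratios of 1.04 and 1.10 and *Flrt3* of 0.803 (0.713 to 0.903) and 0.974 (0.820 to 1.15).

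Past 1.5-fold and lower were 2 of 5 of the genes in the control (*Fgfr2* and *Flrt2*) and 4 of 6 in the knockout (*Fgfr1*, *Fgfr2*, *Frs2* and *Flrt2*). In the knockout, *Fgfr1* reached the minimum through the other CR cells, with 77 UMIs there and 5 in respiratory-high cells. Its place in that count is therefore not independent of its ratio. In the control it had 41 and 3 UMIs, under the minimum. Of all genes, 25.2% and 23.6% were past 1.5-fold and lower in these comparisons, and 50.1% and 47.0% were past it in either direction. The share of the 9 genes that was lower lay above that of all genes in both libraries, from few genes and with no test. Without these cells, *Fgfr1* remained past 1.5-fold between the libraries, and its ratio was 7.14 (4.52 to 11.6) when the control cell with 15 UMIs was left out too.

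**Figure D4:**
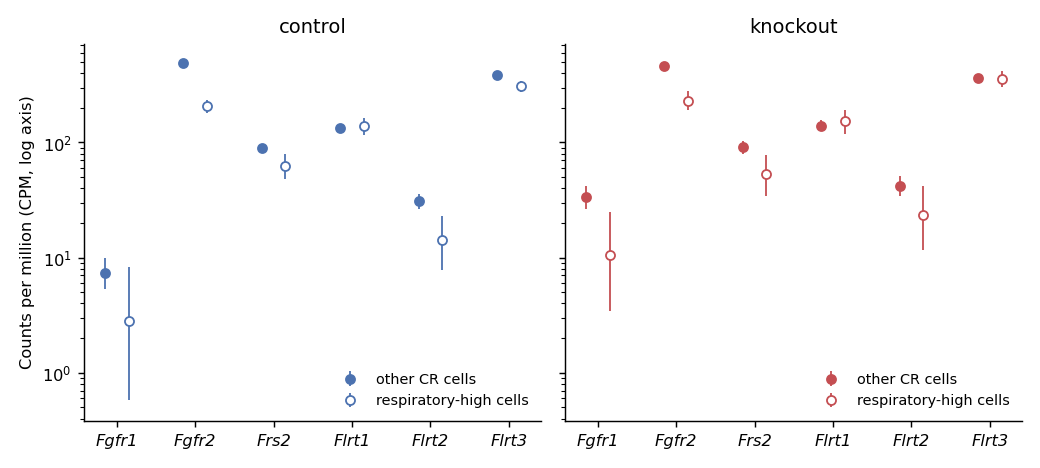
CPM (log axis) of 6 genes in respiratory-high cells (open circles) and other CR cells (filled circles) of the control (left) and knockout (right), with exact 95% intervals. *Fgfr2* is lower in respiratory-high cells of both libraries (206 against 491 CPM and 231 against 463 CPM), and *Flrt1* is level.

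The study gives *Cck*, *Grik1* and *Gabrg3* among the marker genes of its numbered CR clusters, beside *Pcp4* for another. Cells were grouped here by a UMI of *Cck*, *Grik1* or *Gabrg3* after thinning to 2000 UMIs, without rebuilding clusters. *Flrt2* was higher in control cells with a *Grik1* UMI, 58.9 CPM (41.9 to 80.5) in 99 cells against 24.7 CPM in the other 904, a ratio of 2.38 (1.63 to 3.41). Its 39 UMIs there came from 21 cells, and the level without the highest, of 9 UMIs, was 45.3 CPM. The 25 knockout cells with a *Grik1* UMI held 4 *Flrt2* UMIs, 27.0 CPM (7.36 to 69.1), against 39.7 CPM in the others. These were too few cells and UMIs to show a difference in either direction.

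For *Gabrg3*, the gene of a GABA-A receptor subunit, the libraries pointed opposite ways in *Flrt2*. In the control it was at 18.5 CPM in the 347 cells with a *Gabrg3* UMI and 33.2 CPM in the other 656, a ratio of 0.559 (0.386 to 0.793). In the knockout it was at 44.0 CPM in 132 cells and 36.4 CPM in 258, a ratio of 1.21 (0.801 to 1.81). *Flrt1* was higher with *Gabrg3* in the control, at 161 against 120 CPM (ratio 1.34, 1.17 to 1.53), and its knockout ratio was 1.15 (0.933 to 1.42). With *Grik1* the ratio of *Flrt1* was 0.855 (0.667 to 1.08) in control cells and 1.62 (1.10 to 2.32) in knockout cells, the latter from 33 UMIs in 25 cells.

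**Figure D5:**
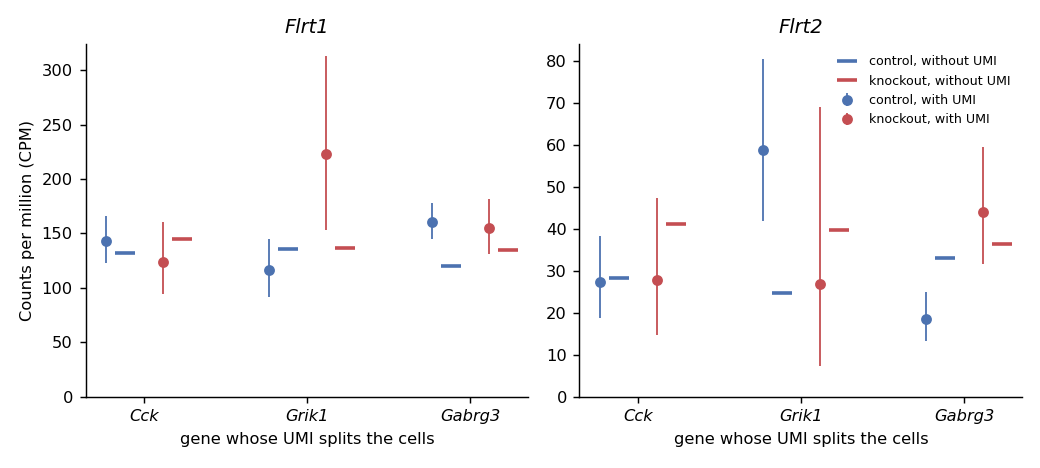
*Flrt1* (left) and *Flrt2* (right) CPM (linear axes from 0) in control (blue) and knockout (red) CR cells with a UMI of *Cck*, *Grik1* or *Gabrg3* after thinning (circles, exact 95% intervals) and in the cells without (bars). *Flrt2* stands at 58.9 CPM in control cells with *Grik1* against 24.7 CPM without, and at 18.5 CPM in control cells with *Gabrg3* against 33.2 CPM without.

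*Fgfr2* and *Flrt3* varied little across these groups. The ratios of *Fgfr2* by *Cck*, *Grik1* and *Gabrg3* were 1.06, 0.979 and 1.01 in the control and 1.15, 0.854 and 1.03 in the knockout. Those of *Flrt3* were 1.10, 0.917 and 1.11 in the control and 1.01, 0.884 and 1.07 in the knockout. *Frs2* was lower in control cells with *Grik1*, at 52.8 against 88.6 CPM (ratio 0.597, 0.411 to 0.841), and its knockout ratio was 0.792 (0.375 to 1.48). *Fgfr1* in the knockout was at 42.7 CPM with and 27.0 CPM without *Cck*, a ratio of 1.58 (0.906 to 2.66).

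Within single cells, receptors and FLRT genes were seen together about as often as their separate shares give. After thinning, 56.8% of control and 55.6% of knockout cells held a UMI of one of the 4 receptors, and 59.9% and 60.8% one of a FLRT gene. Both were present in 34.8% (31.8 to 37.8) of control and 32.1% (27.4 to 36.9) of knockout cells, where the product of the separate shares is 34.1% and 33.8%. A receptor, an adaptor and a FLRT gene together were seen in 6.78% and 5.38%, and none of the 9 genes in 14.7% and 12.3%. These shares were level between the libraries within counting error.

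The genes most like *Fgfr2*, *Frs2*, *Flrt1* and *Flrt2* were sought by Pearson correlation of log2(CPM + 1) over 12 groups of cells, namely each library divided into respiratory-high cells and, by these 3 genes, the other CR cells. The points share a library and differ in depth, so the values are descriptive. For *Fgfr2* the closest of 7175 genes were *Gm5089* (r = 0.983), *Magi2* (0.978), a synaptic scaffold gene, and *Malat1* (0.977), a nuclear long noncoding RNA. Over the 10 groups without respiratory-high cells these values were 0.831, 0.922 and 0.777. The closest gene to *Frs2* was *Atp6v1h* (0.916), to *Flrt1* *Trap1* (0.877) and to *Flrt2* *Bfar* (0.944).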

How the data were processed

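CR cells were sorted from P14 hippocampus and sequenced by 10x 3′ chemistry as 1 library per genotype, each from 4 pooled mice. The authors deposited raw UMI counts per gene and barcode for all barcodes, not normalized or filtered (16336796 control and 6777071 knockout UMIs). The methods name Cell Ranger with an mm10 reference, the file header Cell Ranger 4, and the submitters' processing notes Cell Ranger 8.0.1 and mm39. Counting of introns and strand are not given in the sources used here. Positions come from the GENCODE M21 annotation (GRCm38), joined on the Ensembl identifiers.

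Barcodes with at least 2000 UMIs and 5 *Reln* UMIs were kept, without a doublet caller. Counts were summed per group and divided by the UMIs outside 192 mt-, Rpl, Rps and Mrp genes (6601724 control, 2765943 knockout). Ratios have exact conditional 95% intervals and were given for genes with at least 50 UMIs. With 1 library per genotype no significance test was made. Cells were thinned to 2000 UMIs for shares of cells. Scripts used numpy 2.4.6, scipy 1.17.1, pandas 2.3.3 and Python 3.11.15 and were tested on simulated data.

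The 9 genes, the lists and the splits were chosen with earlier results of these data known. All 9 genes are named; other pathway genes are named where past 1.5-fold. Alternatives covered the UMI and *Reln* minimums, the scaling, thinning, the highest cell, astrocyte markers, deep cells and free RNA.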

Additional observations from a re-analysis of the deposited data

Results flagged for a closer look

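Several splits of the cells had ratios on opposite sides of 1 in the 2 libraries. In each pair below, the interval of at least 1 library covered 1, so the direction there was not resolved. With 1 library per genotype, none of these differences was tested. By *Etv4* or *Etv5* UMI, the ratio of cells with over cells without was 1.12 in the knockout and 0.908 in the control for *Frs2*, 0.900 and 1.09 for *Flrt1*, and 0.966 and 1.14 for *Flrt3*. By *Cck* UMI it was 0.839 and 1.05 for *Frs2* and 0.852 and 1.09 for *Flrt1*. By *Gabrg3* UMI it was 0.938 and 1.17 for *Frs2* and 1.21 and 0.559 for *Flrt2*. By *Grik1* UMI it was 1.62 and 0.855 for *Flrt1* and 0.680 and 2.38 for *Flrt2*. In the last pair, the knockout value rests on 4 *Flrt2* UMIs. The intervals of the libraries did not overlap for *Flrt2* by *Gabrg3* (0.386 to 0.793 in the control, 0.801 to 1.81 in the knockout) and for *Flrt1* by *Grik1* (0.667 to 1.08 and 1.10 to 2.32), and overlapped for the others.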

How the results depend on the processing

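No paired analysis was possible because each genotype was 1 library. Of 372 ratios of the 9 genes under other settings, 361 stayed within the main counting interval, 11 moved outside it and 0 of the ratios past 1.5-fold changed direction. *Fgfr1* was higher in the knockout under all 15 settings, at ratios of 2.51 to 7.14. The lowest came without cells with any astrocyte marker UMI, a setting added after the data were seen, and the highest without respiratory-high cells and the highest control cell. Thinning to 2000 UMIs left 21 knockout and 14 control *Fgfr1* UMIs, under the minimum of 50, with a ratio of 3.87 (1.88 to 8.24), and the 1 gene counted past 1.5-fold was then *Flrt2*, at 1.5-fold.

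By *Etv* UMI in the knockout, the count of genes past 1.5-fold was 0 with thinned cells and 0 without cells with any astrocyte marker UMI, since *Fgfr1* then had under 50 UMIs; its ratios were 2.58 (0.928 to 6.72) and 3.04. In the control the count was 1 with thinned cells (*Flrt2*, 0.606), 1 with the split made on thinned cells (*Frs2*, 0.550) and 1 without astrocyte marker cells (*Flrt2*, 0.622). For respiratory-high knockout cells it was 2 with thinned cells, where *Fgfr1* and *Flrt2* had under 50 UMIs. With a minimum of 20 or 100 UMIs per gene, 13.1% and 4.40% of all genes were past 1.5-fold between the libraries, and 16.5% and 4.98% by *Etv* UMI. Depth limits *Fgfr1*, *Fgfr3*, *Fgfrl1* and *Frs3* most, each with under 100 control UMIs. The shares of cells move with depth: with cells thinned to 3000 UMIs, 1.83% of control and 7.75% of knockout cells had an *Fgfr1* UMI, and 7.93% and 9.30% an *Flrt2* UMI.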
